A study of Danio rerio with 9 samples.

Results

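The circadian clock genes described here are per1a, per1b, per2, per3, bhlhe40, bhlhe41, nr1d1 and clocka, measured in whole zebrafish embryos that had been given extra hypoxia-inducible factor (HIF) by injection of mRNA. They were chosen as named genes, and their probes are those whose RefSeq identifier in the array files maps to 1 of the 8. All 8 genes had a probe, 15 of the 43603 probes on the array. A probe was tested if the scanner software called it well above background on every array of 1 group or more. This held for 8 probes, which cover 6 genes of 19549 genes and transcripts tested. nr1d1 and clocka had no probe that passed and are given as levels only.

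Embryos of the Tuebingen strain, collected at 12 h after fertilization, made up 3 groups. Embryos in the first carried injected Hif-3a mRNA, those in the second Hif-1a mRNA, and those in the third, the control, mRNA of GFP, a fluorescent protein, so that all groups share the injection itself. Each group has 3 arrays from 3 independent injection experiments, and each array holds the RNA of a pool of 60 embryos. The amount of mRNA and the lighting of the embryos are not given in the sources used here. With 1 time of collection the arrays give levels and not rhythms. The study asked how Hif-3a acts on transcription beside Hif-1a.

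The vertebrate clock is a loop of transcription. CLOCK and BMAL proteins pair through their PAS domains, bind E-box sequences and switch on the period (per) and cryptochrome (cry) genes, whose proteins return to the nucleus and block CLOCK and BMAL. Bhlhe40 and Bhlhe41, also called DEC1 and DEC2, bind E-boxes themselves and repress them, and their genes are known HIF targets in mammalian cells. REV-ERB receptors, among them the product of nr1d1, repress bmal genes. HIF alpha subunits belong to the same bHLH-PAS protein family as CLOCK and BMAL. In zebrafish many tissues hold clocks that respond to light directly, and per2 and cry1a are light-induced genes there.

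The share of probes called well above background ran from 68.6% to 75.3% over the arrays, and no spot was saturated. The 75th percentile of the signal was 609 to 785 on the Hif-3a arrays, 500 to 611 on the Hif-1a arrays and 766 to 822 on the GFP arrays. Levels below are log2 signals minus that percentile, so a level of 0 is the array's 75th percentile, and they compare arrays for 1 probe but not probes with each other. The Hif-3a array of experiment 1 had 437 outlier spots, against 3 to 24 on each other array. Of 4 tested probes of hif1al, which the gene table lists with the synonym Hif-3alpha, 3 were higher in Hif-3a embryos than in GFP embryos by 8.49, 6.41 and 5.85 on the log2 scale, and the other differed by -0.020. No probe was matched to hif1aa or hif1ab, so the injected Hif-1a mRNA has no such check here. Of 31 marker genes of embryonic tissues 29 were well above background on all 9 arrays. The Hif-1a arrays of experiments 1 and 3 were scanned on a day of their own and share a slide, and scan day 3 holds 1 Hif-1a array, 2 Hif-3a arrays and 2 GFP arrays. The GFP array and the Hif-3a array of experiment 1 were each alone on their scan day. Differences within experiment 1 are therefore also differences between scan days and slides. In experiment 3 the Hif-1a array differs from the others in scan day. In RNA of whole embryos, fewer cells of a type and less RNA per cell cannot be told apart.

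Among the period genes, per1b stood far higher in Hif-1a embryos than in GFP embryos. This rests on 1 probe, A_15_P104502, as the second probe of per1b was well above background on 0 of 9 arrays. The tested probe had levels of -3.999, -4.57 and -2.33 in Hif-3a embryos of experiments 1, 2 and 3. In Hif-1a embryos the levels were -0.98, -1.28 and -1.54, against -4.11, -4.19 and -4.44 in GFP embryos. All 3 Hif-1a arrays lay above all 3 GFP arrays, which held for 17.2% of all genes, and they also lay above all Hif-3a arrays. The Hif-3a array of experiment 3 lay apart from the other Hif-3a arrays, closer to the Hif-1a range. The means were -3.63 ± 1.16 for Hif-3a, -1.27 ± 0.28 for Hif-1a and -4.25 ± 0.17 for GFP (SD, n = 3 each).

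per1b rose by 2.98 ± 0.49 (SE) on the log2 scale in Hif-1a embryos against GFP embryos, which is 7.88-fold, with a 95% interval of 1.86 to 4.10 (adjusted p = 0.0143, limma). It ranked 67 of 19549 by size of increase and 329 by p. It was the only member of 6 tested that passed in this comparison, in which 9.5% of all genes passed. The difference came out alike in each experiment, at 3.13, 2.91 and 2.90 in experiments 1, 2 and 3. Within scan day 3 it was 3.03, from 1 Hif-1a array against 2 GFP arrays. It did not pass with the scan day as a block (3.03, adjusted p = 0.317), where 0.0205% of all genes passed. With the normexp background correction and the same percentile the difference was 1.11 (adjusted p = 0.930), where 0.0256% of all genes passed. With normexp and quantile normalization it was 1.39 (adjusted p = 0.00679), where 9.66% of all genes passed. The call was also lost without the Hif-1a array of experiment 1 (2.84, adjusted p = 0.0553) and without the GFP array of experiment 3 (2.88, adjusted p = 0.0572). In those fits 2.02% and 1.91% of all genes passed.

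In Hif-3a embryos per1b did not pass against GFP embryos, nor did the difference between the HIF groups pass. Hif-3a minus GFP was 0.61 ± 0.49, with an interval of -0.51 to 1.73 (adjusted p = 0.888), and the groups overlap. By experiment it was 0.11, -0.37 and 2.11, so the mean rests on experiment 3, and without that Hif-3a array it was -0.036 (adjusted p = 0.980). Set directly against Hif-1a embryos, Hif-3a embryos had a per1b level that differed by -2.36 ± 0.49, with an interval of -3.48 to -1.24 (adjusted p = 0.0686). These groups do not overlap, which held, with Hif-3a lower, for 11.2% of all genes. The comparison passed without the Hif-3a array of experiment 3, at -3.01 (adjusted p = 0.00723), and with normexp and quantile normalization, at -1.11 (adjusted p = 0.0351). In those fits 0.338% and 1.88% of all genes passed. On the slide that carried both an Hif-3a and an Hif-1a array the difference was -3.28, and within scan day 3 it was -2.17.

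Of the tissue marker lists, 3 had summed levels that were higher on every Hif-1a array than on any other, as per1b was. The other lists did not share this order, and the share of all genes with it is not given here. Levels were summed on the linear scale, so the brightest markers of a list weigh most in its sum. For 3 yolk layer and endoderm markers, of which 1 rose in Hif-1a against GFP embryos, the sum was -0.27 to 0.62 in Hif-3a embryos. It was 1.27 to 2.44 in Hif-1a embryos, against -1.26 to 0.25 in GFP embryos. This sum is mostly mxtx1, the marker that rose, with a Hif-1a minus GFP value of 2.09. The values of sox32 and sox17, 3.02 and 1.78, did not pass. sox17 was tested only through the Hif-1a group, as it was well above background on 2 Hif-3a arrays and 1 GFP array. For 5 oocyte and germline markers, of which 3 rose, the sum was 2.90 to 3.23 in Hif-3a embryos. It was 3.36 to 3.59 in Hif-1a embryos, against 3.05 to 3.19 in GFP embryos. The brightest of these markers were zp3, with a Hif-1a minus GFP value of -0.080, and org, with 2.06. For 2 epidermis markers, of which 0 passed, the sum was 7.996 to 8.12 in Hif-3a embryos and 8.26 to 8.42 in Hif-1a embryos, against 7.80 to 8.06 in GFP embryos. This sum is mostly krt4, with a Hif-1a minus GFP value of 0.41, while that of tp63 was -0.059. The sum of 5 neural plate markers, of which 0 passed, was lowest in Hif-1a embryos, at 5.72 to 5.82 in Hif-3a embryos and 5.57 to 5.62 in Hif-1a embryos, against 5.65 to 5.71 in GFP embryos. Of all genes, 5.73% rose and 3.77% fell in Hif-1a against GFP embryos. The part of these markers in the per1b result was not tested.

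**Figure D1:**
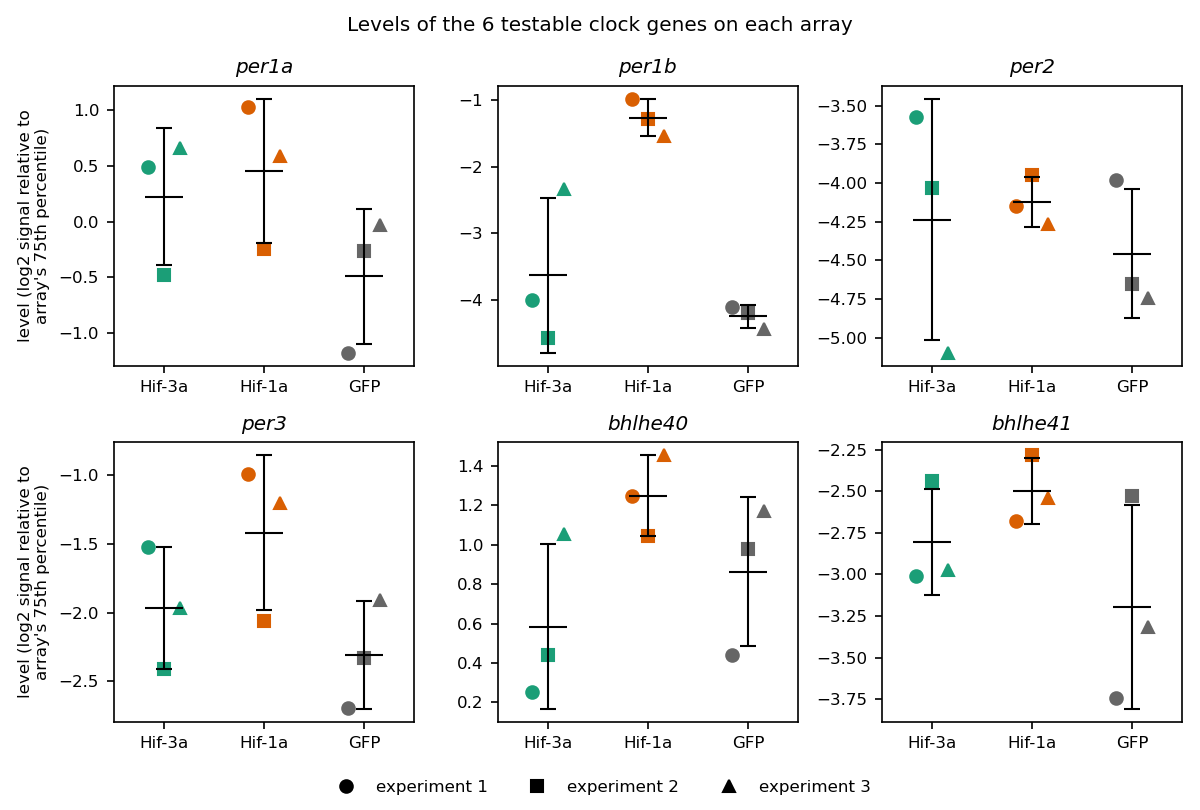
Level of each testable clock gene on each of 9 arrays, as log2 signal relative to the array's 75th percentile, with Hif-3a, Hif-1a and GFP embryos from left to right. Shapes mark the injection experiment, and bars are the mean and SD of 3 arrays. The 3 Hif-1a points of per1b, at -0.98 to -1.54, lie above all others of that gene, while the groups of the other 5 genes overlap.

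per1a, a paralogue of per1b that also encodes a period repressor, varied between experiments and did not pass in any comparison. Its tested probe, A_15_P175931, had levels of 0.49, -0.48 and 0.66 in Hif-3a embryos. In Hif-1a embryos the levels were 1.03, -0.25 and 0.59, against -1.18, -0.27 and -0.033 in GFP embryos. Experiment 2 was lowest in both HIF groups, experiment 1 was lowest in the GFP group, and the groups overlap. Hif-1a minus GFP was 0.95 ± 0.44, with an interval of -0.061 to 1.96 (adjusted p = 0.200). By experiment it was 2.21, 0.016 and 0.62, and within scan day 3 it was -0.10. Hif-3a minus GFP was 0.72 ± 0.44 (adjusted p = 0.868), and Hif-3a minus Hif-1a was -0.23 ± 0.44 (adjusted p = 0.808).

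per3, another gene of the period repressor family, had a high Hif-1a level in experiments 1 and 3. Its tested probe, A_15_P628251, had levels of -1.53, -2.41 and -1.97 in Hif-3a embryos. The Hif-1a embryos had -0.99, -2.06 and -1.20, against -2.69, -2.33 and -1.91 in GFP embryos. Those Hif-1a arrays lay above all GFP arrays, and that of experiment 2 lay within the GFP range. Hif-1a minus GFP was 0.89 ± 0.34, with an interval of 0.12 to 1.67 (adjusted p = 0.130). By experiment it was 1.70, 0.27 and 0.71, and within scan day 3 it was 0.059. Hif-3a minus GFP was 0.34 ± 0.34 (adjusted p = 0.912), and Hif-3a minus Hif-1a was -0.55 ± 0.34 (adjusted p = 0.411).

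per2, the light-induced member of the family, overlapped between all groups. Its tested probe, A_15_P102459, had levels of -3.58, -4.03 and -5.10 in Hif-3a embryos. It had levels of -4.15, -3.95 and -4.27 in Hif-1a embryos, against -3.98, -4.65 and -4.74 in GFP embryos. Both the highest and the lowest of the 9 levels came from Hif-3a arrays. Hif-1a minus GFP was 0.34 ± 0.37, with an interval of -0.51 to 1.18 (adjusted p = 0.586), and it was -0.17, 0.70 and 0.47 by experiment. Hif-3a minus GFP was 0.22 ± 0.37 (adjusted p = 0.962), and Hif-3a minus Hif-1a was -0.11 ± 0.37 (adjusted p = 0.895). Within scan day 3 Hif-1a minus GFP was 0.75.

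bhlhe40 and bhlhe41, the E-box repressors, did not pass in any of the 3 comparisons in the main fit, which takes no account of experiment number. The brighter bhlhe40 probe, A_15_P100831, had levels of 0.25, 0.44 and 1.05 in Hif-3a embryos. For Hif-1a the levels were 1.25, 1.04 and 1.45, against 0.44, 0.98 and 1.17 in GFP embryos. The Hif-1a arrays are at the top and overlap both other groups by a small margin. The Hif-1a minus GFP value was 0.39 ± 0.26, with an interval of -0.20 to 0.97 (adjusted p = 0.357), by experiment 0.81, 0.067 and 0.29, and within scan day 3 -0.028. In Hif-3a embryos the difference from GFP was -0.28 ± 0.26 (adjusted p = 0.904). It was the only negative value among the 6 genes in that comparison. With this probe it was negative in each experiment, at -0.19, -0.53 and -0.11. Hif-3a minus Hif-1a was -0.66 ± 0.26, with an interval of -1.25 to -0.076 (adjusted p = 0.217).

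The bhlhe41 probe that stood for the gene, A_15_P141096, had levels of -3.01, -2.43 and -2.97 in Hif-3a embryos. The Hif-1a embryos had -2.68, -2.28 and -2.54, against -3.74, -2.53 and -3.32 in GFP embryos. The GFP array of experiment 2 reached the Hif-1a range, and the other GFP arrays lay below it. For the gene Hif-1a minus GFP was 0.70 ± 0.30, with an interval of 0.0053 to 1.39 (adjusted p = 0.173), by experiment 1.07, 0.25 and 0.78, and within scan day 3 0.64. With the replicate number as a block it passed (adjusted p = 0.0312), in a fit in which 22.5% of all genes passed. It also passed without the GFP array of experiment 2, at 1.03 (adjusted p = 0.0372), where 10.5% of all genes passed. The Hif-3a embryos differed from GFP by 0.39 ± 0.30 (adjusted p = 0.882), and Hif-3a minus Hif-1a was -0.31 ± 0.30 (adjusted p = 0.611).

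**Figure D2:**
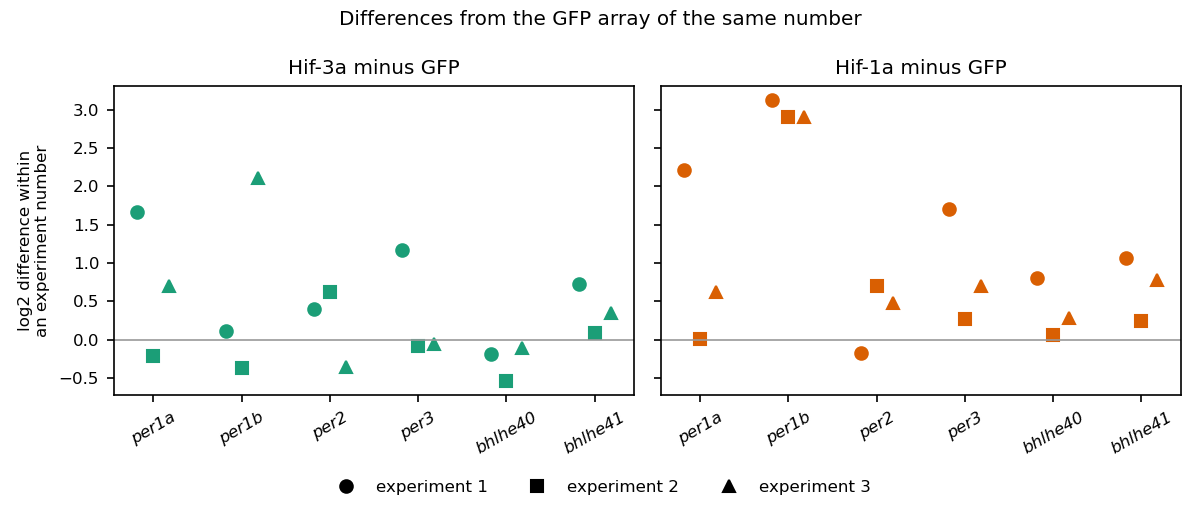
Log2 difference of each HIF array from the GFP array with the same experiment number, for Hif-3a on the left and Hif-1a on the right, with shapes for the experiments. The Hif-1a values of per1b lie between 2.90 and 3.13, while those of per1a spread over 0.016 to 2.21. The Hif-3a value of per1b reaches 2.11 in experiment 3 and is 0.11 and -0.37 in the other experiments.

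Across the 6 tested members the Hif-1a minus GFP values were all positive, with a median of 0.80, against -0.011 over all 19549 genes, though per2 and bhlhe41 were negative with normexp at the 75th percentile and per1a and bhlhe40 within scan day 3. The 7 member probes that did not pass the filter also had higher mean levels in Hif-1a than in GFP embryos. Among them was the second per1b probe, at -7.51 against -8.27, which was well above background on 0 of 9 arrays. With no filter on dim probes the median over all genes was 0.047. The positive sign is thus not limited to probes with a measurable level, and its cause was not tested. The order Hif-1a, Hif-3a, GFP held for the means of 5 genes, and for bhlhe40 the order was Hif-1a, GFP, Hif-3a. Of the neighbours in these orders, only Hif-1a and Hif-3a for per1b did not overlap. For Hif-3a minus GFP 5 of 6 values were positive, with a median of 0.37, against 0.022 over all genes, and 0 of 6 passed. In that comparison 0.00512% of all genes passed, that is 1 gene, and 1191 genes had an unadjusted p under 0.05. For Hif-3a minus Hif-1a all 6 values were negative, with a median of -0.43, against 0.029 over all genes, though per2 was positive with both normexp settings, bhlhe41 with normexp at the 75th percentile and per1a within scan day 3. There 0 of 6 members passed, while 0.926% of all genes did. The comparisons share arrays, so their values are not independent of each other.

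**Figure D3:**
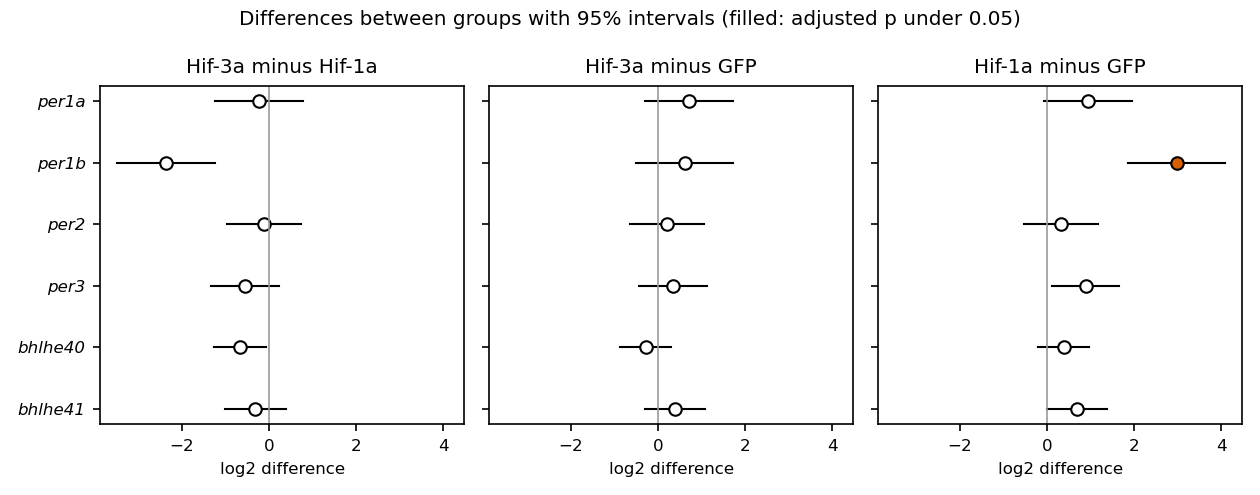
Log2 differences with 95% intervals for the 6 tested clock genes in the comparisons Hif-3a minus Hif-1a, Hif-3a minus GFP and Hif-1a minus GFP. The filled point, per1b at 2.98 in Hif-1a minus GFP, is the only one with an adjusted p under 0.05 over all genes. All intervals of Hif-3a minus GFP cross 0.

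Counted by probe, 1 of the 8 tested member probes passed for Hif-1a against GFP, that of per1b, and 8.49% of all 31117 tested probes passed. For Hif-3a against GFP 0 of 8 passed (0.0321% of all probes), and for Hif-3a against Hif-1a 0 of 8 passed (0.964%). The bhlhe41 probes gave like patterns, with a mean absolute distance of 0.14 between their levels once each was centred on its mean. The second bhlhe41 probe, A_15_P622641, had levels of -3.73, -3.39 and -3.62 in Hif-3a embryos. It had levels of -3.23, -3.26 and -3.17 in Hif-1a embryos, against -4.37, -3.43 and -4.15 in GFP embryos. Its Hif-1a arrays lay above all others. Of all genes, 17.2% had all Hif-1a arrays above the GFP arrays and 11.2% had all Hif-3a arrays below the Hif-1a arrays. These shares are over genes and not probes, and the share with both orders at once is not given here. For this probe Hif-1a minus GFP was 0.76 ± 0.23 (adjusted p = 0.0749 over probes).

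The bhlhe40 probes agreed less, with a distance of 0.44. The dimmer one, A_15_P180036, had levels of -6.17, -5.79 and -5.16 in Hif-3a embryos. It had levels of -4.62, -5.16 and -3.10 in Hif-1a embryos, against -5.05, -4.72 and -5.22 in GFP embryos. It was well above background on 2 of 3 Hif-3a arrays and on all others. Hif-3a minus Hif-1a was -1.41 ± 0.49 (adjusted p = 0.192 over probes), the same sign as for the brighter probe. For this dimmer probe, Hif-3a minus GFP was -1.12, -1.07 and 0.060 by experiment, and Hif-1a minus GFP was 0.43, -0.44 and 2.12.

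The other 7 probes did not pass the filter. The second probe of per3, A_15_P103364, was well above background on 1 Hif-3a array, 2 Hif-1a arrays and 0 GFP arrays. Its levels were -6.44, -5.80 and -5.90 in Hif-3a embryos and -5.03, -5.27 and -5.78 in Hif-1a embryos, against -7.07, -6.50 and -6.88 in GFP embryos. The GFP arrays were lowest, and each lay under the lowest level well above background on its array, which ran from -6.35 to -5.38 over the arrays. The clocka probe, for an activator of the loop, was well above background on 1 of 9 arrays, the Hif-3a array of experiment 2. Its levels were -6.10, -5.86 and -6.63 in Hif-3a embryos and -5.9998, -6.05 and -5.96 in Hif-1a embryos, against -6.66, -7.39 and -6.90 in GFP embryos. The second probes of per1a, per1b and per2 and both probes of nr1d1, the REV-ERB repressor gene, were well above background on 0 of 9 arrays. For nr1d1 and clocka no difference between groups was measurable above background.

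**Figure D4:**
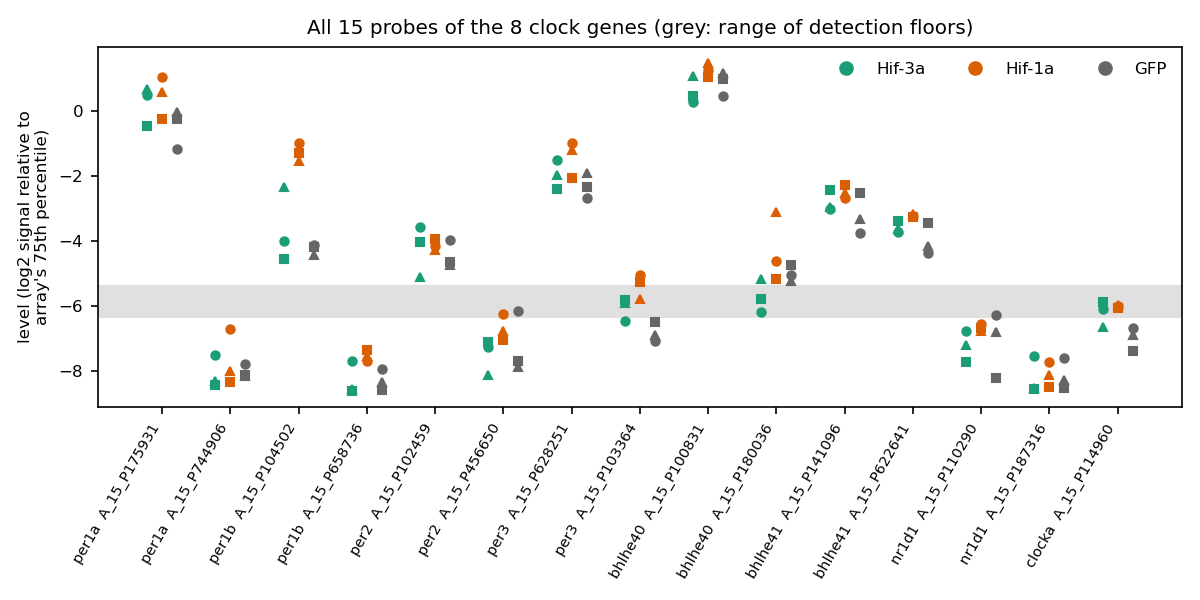
Levels of all 15 probes of the 8 clock genes on each array, as log2 signal relative to the array's 75th percentile, with Hif-3a, Hif-1a and GFP arrays side by side for each probe and the shapes of the experiments as circles, squares and triangles for 1, 2 and 3. The grey band spans the lowest level well above background on the 9 arrays, -6.35 to -5.38. Both nr1d1 probes lie below the band or at its lower edge, and levels compare arrays within a probe only.

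The rest of the pathway was taken from lists of clock genes by role, 65 genes with the members, of which 55 had a probe and 47 were tested. Of the 41 tested genes that are not members, 5 rose and 3 fell in Hif-1a embryos against GFP embryos, with a median difference of 0.07. Of all genes, 5.73% rose and 3.77% fell in that comparison. For Hif-3a against GFP 0 of 47 passed, against 0.00512% of all genes. For Hif-3a against Hif-1a 1 of 47 passed, against 0.926% of all genes. Blocked by replicate number, 14 of the 47 passed for Hif-1a against GFP, where 22.5% of all genes passed, with cry4 (adjusted p = 0.0294) and cry5 (adjusted p = 0.0213) among them. With the scan day as a block, within scan day 3 and with normexp at the 75th percentile 0 of the 47 passed, against 0.0205%, 0% and 0.0256% of all genes.

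The cryptochrome list had 8 tested genes, among them cry-dash and cry5, which it holds beside the partners of the period proteins in repression. All 8 had a positive Hif-1a minus GFP value, with a median of 0.53, though cry3a and cry3b were negative when arrays were centred on their medians and cry1b, cry3b and cry4 with normexp at the 75th percentile. Of the 8, 2 rose. cry1a, light-induced in zebrafish, had levels of -1.24, -1.10 and -1.11 in Hif-3a embryos and -0.43, -0.46 and -0.78 in Hif-1a embryos, against -1.32, -1.59 and -1.30 in GFP embryos. The Hif-1a arrays lay above all others. Of all genes, 17.2% had all Hif-1a arrays above the GFP arrays and 11.2% had all Hif-3a arrays below the Hif-1a arrays. The share of all genes with both orders at once is not given here. For cry1a Hif-1a minus GFP was 0.84 ± 0.14 (adjusted p = 0.0153). This call held in 8 of 9 fits with 1 array left out, in which 1.91% to 10.5% of all genes passed. It was lost with the scan day as a block (0.98, adjusted p = 0.275), within scan day 3 (adjusted p = 0.310) and with normexp at the 75th percentile (0.50, adjusted p = 0.930). cry-dash, which encodes a cryptochrome related to DNA photolyases, rose by 0.60 ± 0.13 (adjusted p = 0.0304), and this held in 3 of 9 such fits. The values of cry5, which encodes a light-dependent DNA repair enzyme, were 0.86 for Hif-3a minus GFP (adjusted p = 0.404) and 0.71 for Hif-1a minus GFP (adjusted p = 0.0646). Hif-1a minus GFP was 0.59 for cry4 (adjusted p = 0.0768), 0.46 for cry2, 0.22 for cry1b, 0.053 for cry3b and 0.040 for cry3a.

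Of the activator genes 3 were tested, all of them bmal genes, and they did not pass in any comparison. Hif-1a minus GFP was -0.028 for bmal1a, 0.27 for bmal1b (adjusted p = 0.790) and -0.15 for bmal2. bmal1a had levels of 1.48, 1.56 and 1.498 in Hif-3a embryos and 1.35, 1.41 and 1.55 in Hif-1a embryos, against 1.42, 1.44 and 1.53 in GFP embryos, and the groups overlap. Of 4 REV-ERB and ROR receptor genes tested, nr1d2a, a REV-ERB repressor of bmal genes, rose by 0.95 ± 0.25 in Hif-1a embryos (adjusted p = 0.0499). rorab, a receptor gene of the ROR family of activators at the same sites, fell by 1.10 on the log2 scale (SE 0.27, adjusted p = 0.0423). Each of these calls held in 1 of the 9 fits with 1 array left out, in which 1.91% to 10.5% of all genes passed. With normexp at the 75th percentile the nr1d2a value was -0.22 (adjusted p = 0.939). Levels of nr1d2a were low outside Hif-1a embryos, at -5.08, -5.04 and -4.99 in GFP embryos, and well above background on 2 of 3 Hif-3a arrays. The lowest level well above background was -6.35 to -5.38 over the arrays.

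Among 7 tested genes of the PAR bZIP and nfil3 family, which act at D-box sequences, 2 rose in Hif-1a embryos. tefb, a D-box activator, rose by 0.89 ± 0.18 (adjusted p = 0.0251), and nfil3-5, of the repressor branch, by 0.77 ± 0.15 (adjusted p = 0.0219). With 1 array left out the calls held in 5 and 4 of 9 fits, in which 1.91% to 10.5% of all genes passed. With normexp at the 75th percentile the tefb value was -0.11 (adjusted p = 0.963). Of 13 kinases, ubiquitin ligases and partner proteins tested, tipin, whose protein works with Timeless in DNA replication, fell by 0.94 (SE 0.20, adjusted p = 0.0297), a call that held in 4 of 9 such fits. Of 4 tested light-induced DNA repair genes 0 passed. aanat2, which encodes the pineal enzyme of melatonin synthesis and is a clock output, had levels of 0.26, 0.097 and -0.018 in Hif-3a embryos and -0.93, -1.32 and -0.72 in Hif-1a embryos, against 0.61, 0.38 and 0.70 in GFP embryos. The Hif-1a arrays lay below all others, and the share of all genes with that order is not given here. aanat2 fell by 1.55 in Hif-1a embryos against GFP embryos (SE 0.18, adjusted p = 0.00438) and was higher by 1.10 in Hif-3a than in Hif-1a embryos (adjusted p = 0.0343). The Hif-1a call held in all 9 fits with 1 array left out and the direct one in 3 of 9. In these fits 1.91% to 10.5% of all genes passed for Hif-1a against GFP and 0.286% to 1.44% for the direct comparison. The Hif-1a minus GFP value was -1.86 with the scan day as a block (adjusted p = 0.0813) and within scan day 3 (adjusted p = 0.168), and -1.25 with normexp at the 75th percentile (adjusted p = 0.154). In these settings the direct comparison of aanat2 did not pass either (adjusted p = 0.242, 0.420 and 0.719). The summed level of 4 pineal markers, aanat2 among them, was 6.07 to 6.70 in Hif-3a embryos. It was 6.07 to 6.83 in Hif-1a embryos, against 6.75 to 7.08 in GFP embryos. Levels were summed on the linear scale, so this sum is mostly exorh, with mean levels of 6.32, 6.49 and 6.90 in those groups. The marker crx rose by 3.94 in Hif-1a embryos (adjusted p = 0.000978). It was dim elsewhere, at -5.38, -4.47 and -5.42 in GFP embryos, and well above background on 2 of 3 Hif-3a arrays. Hif-1a minus GFP was -0.41 for exorh (adjusted p = 0.290) and -0.15 for otx5 (adjusted p = 0.477). The part of these markers in the aanat2 result was not tested.

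**Figure D5:**
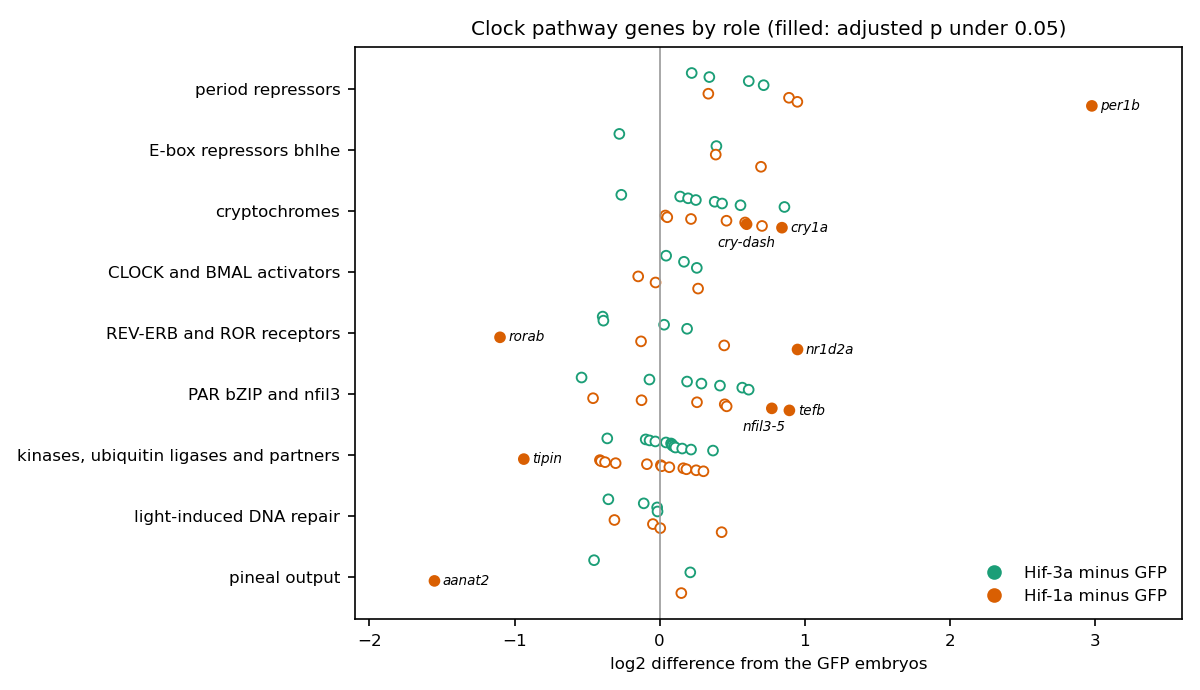
Log2 difference from the GFP embryos for each of 47 tested clock pathway genes, grouped by role, with Hif-3a in green and Hif-1a in orange and filled points for an adjusted p under 0.05. per1b lies farthest right at 2.98 and aanat2 farthest left at -1.55, both for Hif-1a, and no Hif-3a point is filled.

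The genes whose levels followed per1b most closely over the 9 arrays were slc16a3a, csrp2 and dgat1b, among 9717 genes with a proper symbol. Likeness was the mean absolute log2 distance after centring each gene on its mean, and it was 0.43 for slc16a3a, a lactate transporter gene, 0.46 for csrp2, a LIM domain protein gene, and 0.46 for dgat1b, a gene of triglyceride synthesis. Their Hif-1a minus GFP values were 2.92, 2.80 and 2.54, and their Hif-3a minus GFP values were -0.17, 0.39 and 0.52. They were picked for their likeness, so these values are a description. Outside Hif-1a embryos slc16a3a was dim, at -5.94 to -5.37. The lowest level well above background was -6.35 to -5.38 over the arrays, so its differences lean on values near background.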

How the data were processed

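RNA of 9 pools was hybridised to 1-colour Agilent zebrafish arrays. The labelling protocol names a mouse array, but the file headers give a zebrafish design. Per the file headers, the deposited intensity of each spot came from Feature Extraction 10.7.3.1, background-subtracted and detrended. The deposited flags are other values, 0 or 1. The authors normalized with GeneSpring 11.0, per the labels, and the deposited value table holds log2 values, whose correlation with the scanner values ran from 0.9998 to 0.99996 over the arrays.

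Probes were joined to symbols through RefSeq accessions (GRCz12tu table, names only; 25069 of 43603 matched). Spots of a probe were averaged, and 459 outlier probe values were left out. Log2 intensity minus the array's 75th percentile was fitted with limma 3.58.1 (1 mean per group, all 9 arrays, two-sided, Benjamini-Hochberg over all genes, or over all probes, called at 0.05). Probes were kept where every array of 1 group or more had them well above background, and the brightest probe stood for a gene. The normexp alternative (offset 50) used median signals, since the files hold no mean signals. Replicate numbers were read as injection experiments, since the design text names 3 of them, and deviations from group means correlated at 0.11 to 0.58 in all 9 same-number pairs. Members and lists were chosen with earlier results of these data known. The text names all members, at most 3 passing genes per clock list by smallest p, cryptochromes and bmal genes as values, and the 3 genes most like each passing member. Other settings are given at the end.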

Additional observations from a re-analysis of the deposited data

How the results depend on the processing

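With 3 arrays a group the number of arrays limits every value, and dim probes (nr1d1, clocka) carry no measurable difference. The main counts of passing genes were 1 of 6 members for Hif-1a against GFP and 0 for the other comparisons, and 9 of 47 pathway genes for Hif-1a against GFP and 1 for Hif-3a against Hif-1a. For Hif-1a against GFP, the members passing were 0 with normexp at the 75th percentile, with the scan day as a block and within scan day 3, 2 with the replicate block, and 0 to 2 leaving out 1 array. The member probes passing were 0, 0 and 0 in those first settings, 3 with the replicate block, 2 with no filter on dim probes and 0 to 3 leaving out 1 array. The pathway genes passing were 0, 0 and 0 in the same settings, 14 with the replicate block, 3 with no filter, 5 with only the 2 groups compared and 1 to 10 leaving out 1 array. For Hif-3a against Hif-1a, 1 member and 1 member probe passed with normexp and quantile normalization, and 0 to 1 of each leaving out 1 array. The pathway count there was 3 with normexp and quantile normalization, 2 with the replicate block, 0 with normexp at the 75th percentile, no filter, the scan day block, within scan day 3 or only the 2 groups compared, and 0 to 2 leaving out 1 array. For Hif-1a against GFP the share of all genes passing was 9.5% in the main setting, 0.0256% with normexp at the 75th percentile, 0.0205% with the scan day block, 0% within scan day 3, 22.5% with the replicate block, 2.47% with no filter and 3.56% with only the 2 groups compared. Of all probes 8.49% passed in the main setting, 0.0354%, 0.0161%, 0% and 21.4% in the next 4 settings and 2.64% with no filter. For Hif-3a against Hif-1a the share of all genes was 0.926% in the main setting, 1.88% with normexp and quantile normalization and 4.55% with the replicate block. Leaving out 1 array, 0.286% to 1.44% of all genes passed there. For Hif-1a against GFP 1.91% to 10.5% of all genes and 1.97% to 9.28% of all probes passed leaving out 1 array. The replicate block changed no other member's call. In normexp at the 75th percentile the median of all genes shifted by -0.20 for Hif-1a minus GFP and 0.22 for Hif-3a minus Hif-1a.

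Of the 18 member differences in 22 alternative settings, 18 values changed sign, none of them called. Each scan day other than day 3 holds a single group, so the scan day block and the fit within scan day 3 gave the same differences. They are counted here as separate settings, so a sign change in them is counted under both. With normexp at the 75th percentile Hif-1a minus GFP was -0.43 for per2 and -0.091 for bhlhe41, and Hif-3a minus Hif-1a was 0.47 for per2 and 0.27 for bhlhe41. With normexp and quantile normalization Hif-3a minus Hif-1a was 0.051 for per2. With the scan day as a block and within scan day 3 Hif-3a minus Hif-1a was 0.34 for per1a, Hif-3a minus GFP was -0.070 for per3, and Hif-1a minus GFP was -0.10 for per1a and -0.028 for bhlhe40. Hif-3a minus Hif-1a was 0.054 for per1a without the Hif-1a array of experiment 1, 0.12 for per1a without the Hif-3a array of experiment 2 and 0.32 for per2 without the Hif-3a array of experiment 3. Leaving out 1 array gave -0.59 to 0.12 for per1a and -0.44 to 0.32 for per2 in Hif-3a minus Hif-1a, and -0.036 to 1.08 for per1b and -0.11 to 0.65 for per2 in Hif-3a minus GFP. The last comparison was -0.036 for per1b without the Hif-3a array of experiment 3 and -0.11 for per2 without the Hif-3a array of experiment 1. The per1b value of Hif-1a minus GFP was positive in all 22 settings, at 1.11 to 3.11, and passed in 17 of them. Among other clock genes Hif-1a minus GFP changed sign with normexp at the 75th percentile to -0.46 for cry1b, -0.53 for cry3b, -0.087 for cry4, 0.066 for bmal1a, -0.28 for bmal1b, -0.22 for nr1d2a and -0.11 for tefb. For cry3b it was -0.0064 with normexp and quantile normalization, -0.063 with quantile normalization, -0.055 centred on medians and -0.065 in the authors' values. For cry3a it was -0.067 centred on medians and -0.069 in both scan day settings, and for bmal1a 0.021 with quantile normalization and 0.022 in the authors' values. Leaving out 1 array gave -0.011 to 0.34 for cry1b, -0.056 to 0.11 for cry3a, -0.10 to 0.27 for cry3b, -0.084 to 0.013 for bmal1a and -0.23 to 0.71 for bmal1b. The causes were not tested.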

Other observations

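per1a and per3 moved alike over the 9 arrays, a pair chosen after the values were seen. Among the 15 pairs of tested members they were the closest, with a mean absolute log2 distance of 0.20 after centring, and per1b and per2 were the farthest apart, at 1.43. Of 9717 genes with a proper symbol, per3 ranked 4 in closeness to per1a, and per1a ranked 46 in closeness to per3. In both genes the lowest array was the GFP array of experiment 1 and the highest the Hif-1a array of experiment 1. Over all arrays the range was 2.21 for per1a and 1.70 for per3, against 1.15 and 0.78 among the GFP arrays alone. The GFP array of experiment 1 was alone on its scan day and slide. The Hif-1a array of experiment 1 shared its scan day and slide only with the Hif-1a array of experiment 3. Group, scan day and slide thus cannot be told apart between the lowest and the highest array. Within scan day 3 Hif-1a minus GFP was -0.10 for per1a and 0.059 for per3.

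The GFP arrays also differed among themselves. The range of the 3 GFP levels was 0.33 for per1b and 1.21 for bhlhe41, so the smallest spread among the members' GFP levels belonged to the gene with the largest Hif-1a minus GFP difference.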
